A study of Homo sapiens with 4 samples.

Results

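A set of 4 genes was followed in MiaPaca-2 cells, an established human pancreatic cancer line, after knockdown of the arginine methyltransferase PRMT1. DPYD, DCTD and UMPS encode enzymes of pyrimidine and pyrimidine drug metabolism, and ABCC10 encodes a drug efflux transporter. The 4 genes were picked by name from the 858 genes of the authors' deposited table, and all 4 were found there once each. They were chosen with their ratios and p-values known, so those values are a description and not a test. The series holds 4 RNA samples: in 2 of them PRMT1 was targeted by a short hairpin RNA (shPRMT1), and the other 2 express a hairpin with no target (shNTC). All were grown in the same serum-supplemented medium, and the labels name no drug treatment. The labels also name no other hairpin and no rescue, so effects of the hairpin on other transcripts and loss of PRMT1 cannot be told apart.

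Pyrimidine nucleotides are made from small precursors, recycled from nucleosides and broken down, and the same enzymes act on the pyrimidine drugs given in pancreatic cancer. Fluorouracil is inactivated by dihydropyrimidine dehydrogenase, the product of DPYD, and is turned into an active nucleotide in part by UMPS. Gemcitabine, a deoxycytidine analog, is phosphorylated by deoxycytidine kinase, and its monophosphate is a substrate of the deaminase DCTD. Drug efflux is carried out largely by ATP-binding cassette (ABC) transporters, of which ABCC10 (also known as MRP7) exports taxanes and vinca alkaloids among others.

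The 858 genes of the table all have an unadjusted p below 0.05 and are 11.2% of the 7640 genes tested, a number recovered from the adjusted p-values. Each has 1 ratio of both groups with its log2 value, a p and an adjusted p. Single-sample values were not used here, so the ratios carry no replicate error, the depth is unknown and no test over samples was run. Nothing in the labels says that replicates were separate cultures, so the p-values reflect only how these 4 libraries vary, and that variation may be technical. The numerator is not named; shPRMT1 was taken as the numerator because PRMT1 itself stands at 0.356 (log2 ratio −1.49, p = 0.0156) in the authors' deposited table; under the opposite reading each direction would reverse. Expression levels were not analysed here, so the cell type could not be checked against its markers. Of 6 epithelial markers the table lists KRT19 (log2 ratio −0.24), of 6 fibroblast markers COL1A2 (−0.51) and of 5 leukocyte markers none in the authors' deposited table; their part in the results was not tested.

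The sequences before the 4 start sites show what these differently placed genes have upstream. Each is the 250 bases before the outermost RefSeq start of the gene (GRCh38.p14, which is not the hg19 build the submitters name), read 5′ to 3′ on the gene's own strand. Capitals mark matches to 6 short motifs searched on both strands: the cAMP response element TGACGTCA, the E-box CACGTG, the GC box GGGCGG, the CCAAT box, the TATA box TATAAA and the ATF4-type element TGATGNAA. None of these matches overlapped another in the 4 windows, and none of the 4 held a CCAAT box. Which start is used in MiaPaca-2 cells is not known from these data.
DPYD (chr1:97921060-97921309, minus strand): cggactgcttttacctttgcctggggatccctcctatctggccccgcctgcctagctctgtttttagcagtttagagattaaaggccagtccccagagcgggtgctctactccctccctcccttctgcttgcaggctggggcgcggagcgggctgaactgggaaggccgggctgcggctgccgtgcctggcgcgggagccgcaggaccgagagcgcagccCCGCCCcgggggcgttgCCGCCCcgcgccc
DCTD (chr4:182917612-182917861, minus strand): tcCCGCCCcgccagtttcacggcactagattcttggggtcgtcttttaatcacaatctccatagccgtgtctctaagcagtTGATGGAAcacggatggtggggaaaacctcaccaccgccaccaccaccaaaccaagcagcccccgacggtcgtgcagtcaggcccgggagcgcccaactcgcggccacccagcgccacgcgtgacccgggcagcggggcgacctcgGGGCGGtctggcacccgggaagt
UMPS (chr3:124730202-124730451, plus strand): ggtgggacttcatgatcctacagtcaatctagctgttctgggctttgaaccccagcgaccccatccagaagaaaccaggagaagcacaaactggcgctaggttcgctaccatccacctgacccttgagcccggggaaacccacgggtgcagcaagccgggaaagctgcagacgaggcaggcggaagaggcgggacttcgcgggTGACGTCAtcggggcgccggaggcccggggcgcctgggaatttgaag
ABCC10 (chr6:43427291-43427540, plus strand): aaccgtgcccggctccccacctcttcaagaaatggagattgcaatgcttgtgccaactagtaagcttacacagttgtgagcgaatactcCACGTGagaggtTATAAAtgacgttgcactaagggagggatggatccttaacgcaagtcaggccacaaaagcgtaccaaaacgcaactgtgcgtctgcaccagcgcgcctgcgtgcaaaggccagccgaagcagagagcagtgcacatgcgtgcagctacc

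No motif of this set was found in all 3 enzyme genes, which were listed lower, and ABCC10, listed higher, shared none with them. DPYD had 2 GC boxes, both on the opposite strand and within 30 bases of the start. DCTD also had 2 GC boxes, 1 near each end of its window, and an ATF4-type element 169 to 162 bases before the start. UMPS had 1 perfect cAMP response element, 47 to 40 bases before the start. ABCC10 had an E-box 161 to 156 bases and a TATA box 149 to 144 bases before the start. Among the windows of 15843 protein-coding genes, 55.8% held a GC box, 34.5% a CCAAT box, 9.35% a TATA box, 7.8% an E-box, 2.29% the cAMP response element and 2.2% the ATF4-type element. A match describes the letters only and is no evidence that a factor binds there.

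CpG content did not set any of the 4 windows at an extreme. DCTD had 23 CpG dinucleotides, DPYD 20, UMPS 17 and ABCC10 14, against a median of 17 over all windows and middle quartiles of 6 to 26. The share of G and C was 68.8% for DPYD, 64.8% for DCTD, 62% for UMPS and 53.6% for ABCC10, with a median of 62% over all windows. ABCC10 was thus the lowest of the 4 on both measures, with 26.0% of the windows below it in G and C and 40.3% below it in CpG.

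**Figure D1:**
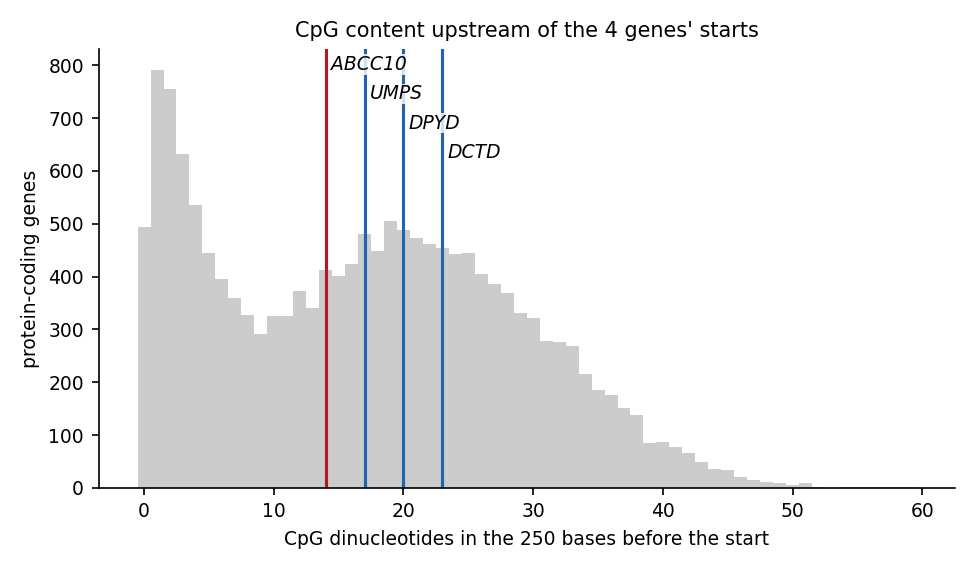
Number of protein-coding genes (vertical axis, of 15843) by the count of CpG dinucleotides in the 250 bases before the RefSeq start (horizontal axis); blue lines mark the 3 genes listed lower and the red line the gene listed higher. ABCC10 (14), UMPS (17), DPYD (20) and DCTD (23) all lie within the middle quartiles of 6 to 26.

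DPYD (ENSG00000188641.8) encodes the first and rate-limiting enzyme of uracil and thymine breakdown, which also degrades most of a dose of fluorouracil. Its ratio was 0.689 in the authors' deposited table, 31.1% lower in shPRMT1 than in shNTC (log2 ratio −0.54, p = 0.00167, adjusted p = 0.308). The gene ranked 38 of 858 by p and 178 by the size of its log2 ratio in the authors' deposited table. Listed genes with a difference of similar size had a wide range of p. Among 58 such genes, whose absolute log2 ratio in the authors' deposited table lay within 0.05 of that of DPYD, p ranged from 0.000753 to 0.0497 with a median of 0.0239, and DPYD had the second lowest.

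The DPYD locus is the longest of the 4. It spans 917 kb in GENCODE 29, with 23 exons in the transcript that codes for the full protein of 1025 residues. Another 9 annotated genes lie within or across it, 6 of them on the opposite strand, including the antisense genes DPYD-AS1 and DPYD-AS2. None of these overlapping genes was in the authors' deposited table. These overlaps are of whole gene spans, introns included, and exons were not compared. Whether counting used strand is not given in the sources used here. Without strand, reads from any exon stretch that DPYD shares with an antisense gene cannot be told apart.

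DCTD (ENSG00000129187.10) encodes deoxycytidylate deaminase, which turns dCMP into dUMP, the substrate of thymidylate synthase, and also deaminates gemcitabine monophosphate. It stood at 0.825 in the authors' deposited table, 17.5% lower in shPRMT1 (log2 ratio −0.28, p = 0.0396, adjusted p = 0.432). The 501 lower entries of the authors' deposited table have a median log2 ratio of −0.28 as well, to 2 decimals. By p DCTD ranked 680 of 858 in the authors' deposited table. Among 180 entries within 0.05 of its absolute log2 ratio, with a median p of 0.0230, it ranked 147 from the lowest p. DCTD had no overlapping annotated gene, and its 6-exon coding transcript encodes 189 residues. Its nearest coding neighbours, TENM3 and WWC2, were not in the authors' deposited table.

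UMPS (ENSG00000114491.9) encodes a bifunctional enzyme that carries out the last steps of de novo UMP synthesis, and whose orotate phosphoribosyltransferase activity also converts fluorouracil to its monophosphate. The difference was small: its ratio of 0.940 in the authors' deposited table is 5.99% below 1 (log2 ratio −0.09, p = 0.0250, adjusted p = 0.432). By size it ranked 806 of 858 in the authors' deposited table, and the absolute log2 ratio of DPYD was 6.02 times as large. By p UMPS ranked 430 of 858. Among 133 entries within 0.05 of its absolute log2 ratio it ranked 67 from the lowest p, at their median of 0.0250. UMPS was the gene of the 4 small enough for a common offset of 0.1 to change its direction. With the log2 ratios of the authors' deposited table all raised by 0.1 its value became 0.011, and centred on their median of −0.12 it became 0.036. The normalization behind the table is not given in the sources used here, so such an offset cannot be checked.

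ABCC10 (ENSG00000124574.10) encodes an ABC transporter of 1492 residues from a 22-exon coding transcript. Its ratio was 1.42 in the authors' deposited table, 41.9% higher in shPRMT1 (log2 ratio 0.51, p = 0.0497, adjusted p = 0.442). That p is just inside the limit of the authors' deposited table, whose highest p is 0.0498, and ABCC10 ranked 853 of 858 by p. By size it ranked 199 in the authors' deposited table, near DPYD. Among 63 entries of similar size (within 0.05 in absolute log2 ratio), whose median p was 0.0211 in the authors' deposited table, ABCC10 had the highest p. The last 79 bases of ABCC10 overlap DLK2, a coding gene on the opposite strand that was not in the authors' deposited table.

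**Figure D2:**
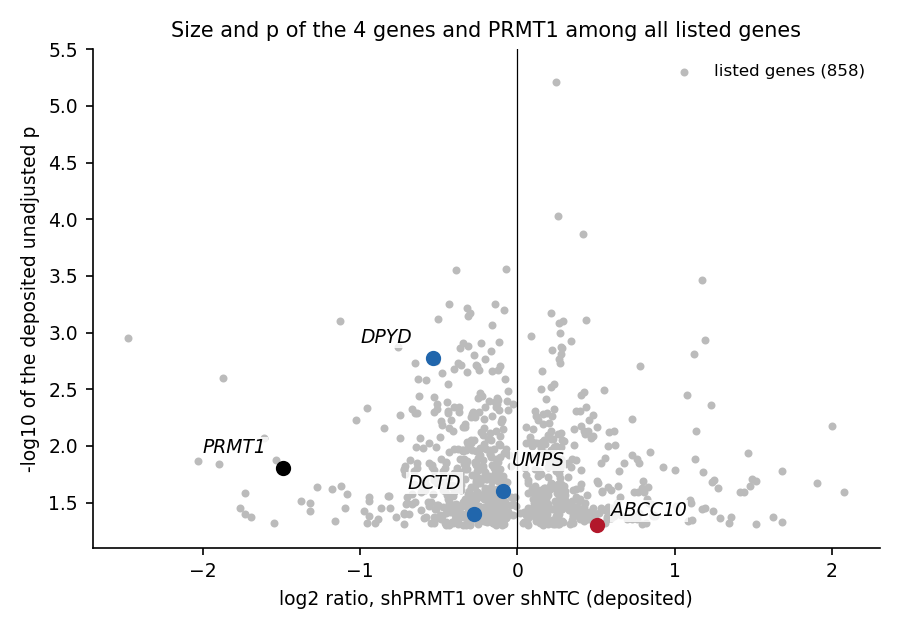
Log2 ratio of shPRMT1 over shNTC (horizontal axis) against −log10 of the unadjusted p (vertical axis) for all 858 genes that the authors deposited (grey points); blue points are DPYD, DCTD and UMPS, the red point is ABCC10 and the black point is PRMT1. DPYD (−0.54) and ABCC10 (0.51) lie at similar distances from 0 but at p of 0.00167 and 0.0497.

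Set side by side, 3 of the 4 genes were listed lower and 1 higher in the authors' deposited table. DPYD and ABCC10 stood 1.04 log2 units apart, and DCTD and ABCC10 0.78 units apart, in the authors' deposited table. These spacings are between genes within 1 comparison and have no error of their own. The 4 genes were chosen because they are in the table, so their count says nothing by itself: 11.2% of the 7640 genes that were tested had an unadjusted p under 0.05, 6.56% lower and 4.67% higher in the authors' deposited table.

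No gene of the 4 passed an adjusted p of 0.05, which 1 gene (0.0131% of those tested) did in the authors' deposited table. The Benjamini-Hochberg limit at the rank of DPYD is a p of 0.000249, and its p in the authors' deposited table was 6.70 times that. For DCTD, UMPS and ABCC10 the p of the authors' deposited table was 8.89 to 8.91 times the limits at their ranks. A gene also passes where a gene of higher p meets its own limit, so these limits are not the p each gene needed. At an unadjusted p under 0.01, which 2.5% of tested genes reached, DPYD was the 1 gene of the 4 left in the authors' deposited table. An absolute log2 ratio of at least 0.5 with p under 0.05, reached by 2.67% of tested genes, left DPYD and ABCC10, 2 of the 4, in the authors' deposited table. An adjusted p is shared by runs of genes under the Benjamini-Hochberg procedure: 48 genes of the authors' deposited table carry the adjusted p of DPYD, and 400 carry that of DCTD and UMPS.

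The wider pyrimidine pathway was read from 4 lists covering breakdown, de novo synthesis, salvage with drug activation, and the deoxynucleotide pool, 48 distinct genes in all. Of these, 6 were in the authors' deposited table, all 6 listed lower, with a median log2 ratio of −0.27. DPYD, DCTD and UMPS are among the 6 and were chosen with their values known. Count, direction and median thus describe the 6 genes and are no test of the pathway. The 6 are 12.5% of all genes of the lists, tested or not. Of the 7640 tested genes 11.2% were listed, a share over a different base, since how many list genes were tested is unknown. Of all listed genes, 58.4% were lower with a median log2 ratio of −0.12 in the authors' deposited table. Besides DPYD, DCTD and UMPS the 6 include NT5E, which encodes the surface 5′-nucleotidase CD73 and was the lowest at −0.61 (p = 0.0365) in the authors' deposited table. NT5C3B, a cytosolic 5′-nucleotidase that removes phosphate from nucleoside monophosphates, was at −0.26 (p = 0.00197) in the authors' deposited table. NME3, a nucleoside diphosphate kinase, was at −0.23 (p = 0.0272) in the authors' deposited table. NT5E, NT5C3B and NME3 do not act on pyrimidines alone, so the 6 genes are not a set specific to pyrimidines.

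By step, breakdown had 3 of 16 genes listed in the authors' deposited table (DPYD, NT5E and NT5C3B), de novo synthesis 2 of 13 (UMPS and NME3) and the deoxynucleotide pool 1 of 14 (DCTD). These are 18.8%, 15.4% and 7.14% of each list, tested or not, beside 11.2% of all tested genes. The lists are short and how many of their genes were tested is unknown, so the steps cannot be ranked by these counts. None of the 13 salvage and drug activation genes was in the authors' deposited table; deoxycytidine kinase DCK, the thymidine kinases TK1 and TK2 and the cytidine deaminase CDA are in that list. Ribonucleotide reductase (RRM1, RRM2 and RRM2B), the target of gemcitabine diphosphate, and thymidylate synthase TYMS, the target of fluorouracil, were not in the authors' deposited table either. The other enzymes of fluorouracil breakdown, DPYS and UPB1, were also outside it. Absence from the table means either a p of at least 0.05 or no test at all, and which of these holds cannot be read from it. DCTD was the 1 listed gene (5%) of 20 zinc-dependent deaminases in the authors' deposited table, a family that includes CDA and the APOBEC3 enzymes.

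Purine metabolism was set beside the pyrimidine lists: 2 of its 26 genes appear in the authors' deposited table, both lower. That is 7.69% of the list, tested or not, beside 11.2% of all tested genes. AK4, a mitochondrial adenylate kinase, was at −0.29 (p = 0.0109), and PAICS, an enzyme of purine ring synthesis, at −0.06 (p = 0.00328) in the authors' deposited table. Like UMPS, PAICS had a difference of a few percent, 3.88% in the authors' deposited table. By p PAICS ranked 66 of 858 there, and UMPS ranked 430.

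**Figure D3:**
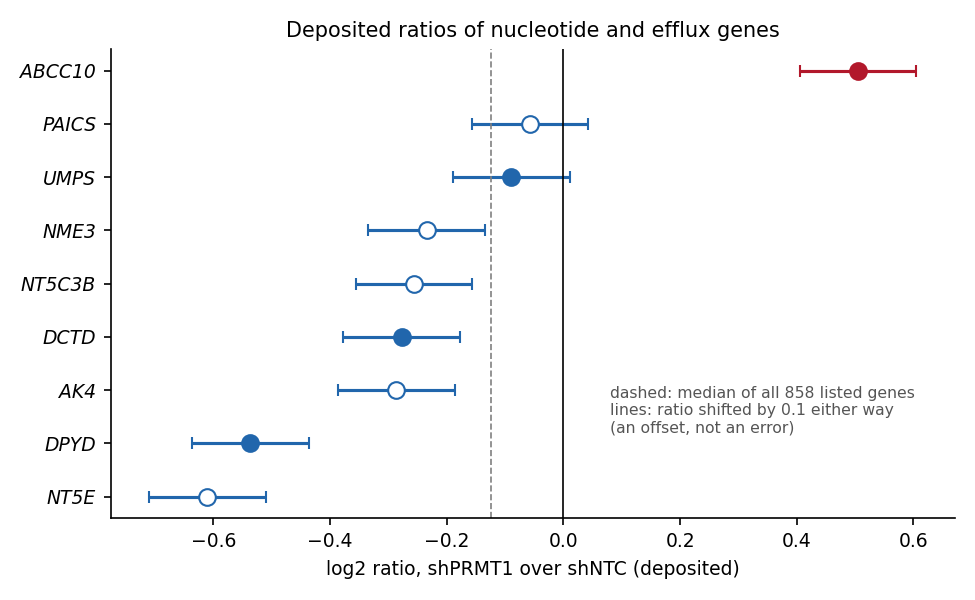
Log2 ratio of shPRMT1 over shNTC (horizontal axis) in the authors' deposited table for the 4 genes (filled points) and the other listed genes of the pyrimidine and purine lists (open points), blue when lower and red when higher; lines show a shift of all ratios by 0.1 either way, not an error, and the dashed line is the median of all 858 genes. ABCC10 (0.51) is the point on the higher side, and the lines of UMPS and PAICS cross 0.

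Few transporter genes were listed. Of 48 ABC transporter genes, 12 in subfamily C and 36 in the others, ABCC10 was the 1 listed in the authors' deposited table, or 2.08%. Among all tested genes the share was 11.2%. How many of the 48 were tested is unknown, so the 2 shares have different bases and the lower share cannot be interpreted. The efflux pumps best known from drug resistance, ABCB1 (P-glycoprotein), ABCG2 and ABCC1, were not in the authors' deposited table. No gene was listed in the authors' deposited table among 7 nucleoside transporters, which include the gemcitabine carrier SLC29A1, among 9 platinum and organic cation transporters, or among 17 genes of the folate cycle.

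**Figure D4:**
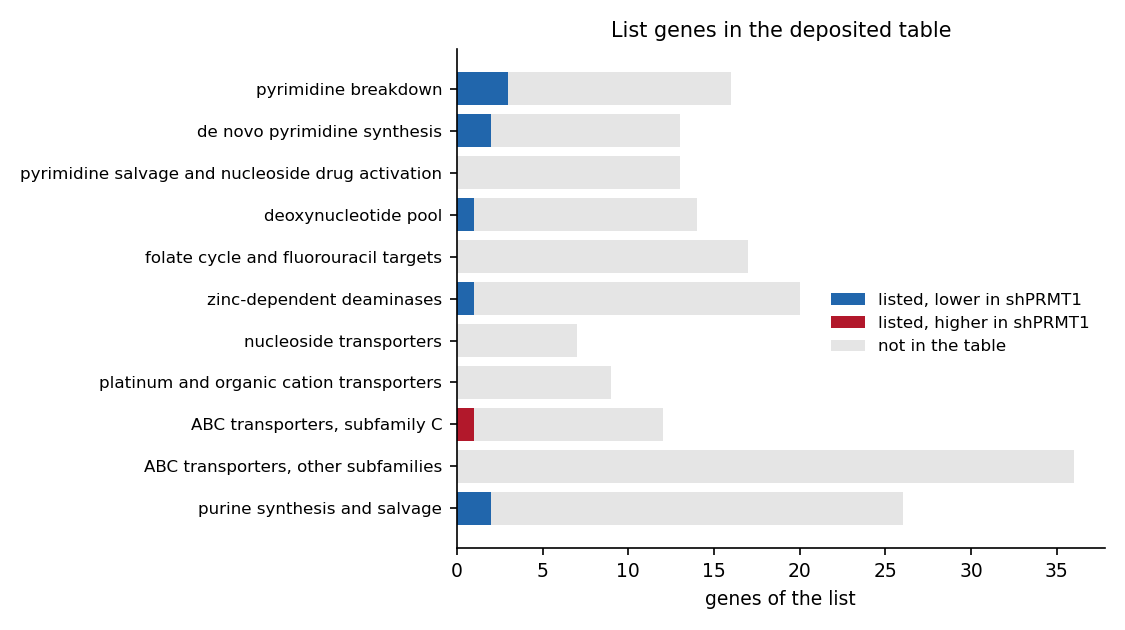
Number of genes (horizontal axis) of each pathway list (rows) that were listed lower (blue) or higher (red) in shPRMT1 in the authors' deposited table, or were not in it (grey). Breakdown has 3 lower genes of 16, and the single higher gene is ABCC10 in subfamily C of the ABC transporters. Counts are over all genes of a list, tested or not, and were not tested against the 11.2% of all tested genes.

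Direction in the authors' deposited table varied with transcript length, so each gene is set beside its length group, 1 of 5 by longest annotated transcript. The median annotated transcripts are shorter: 683 nt for DCTD, 1036 for DPYD, 753.5 for ABCC10 and 1789 for UMPS. The placement thus rests on the choice of the longest. DCTD, with a longest transcript of 1972 nt, falls in a group of 1844 to 2763 nt. Of this group 76.3% were listed lower in the authors' deposited table. DPYD (4412 nt) and ABCC10 (5088 nt) share a group of 4054 to 5862 nt, of which 47.9% were lower in the authors' deposited table. UMPS, with 6738 nt, falls in the longest group (5875 to 34526 nt), of which 37.9% were lower in the authors' deposited table. In the group of DCTD most genes were thus listed lower, and in that of UMPS most were higher. DPYD and ABCC10 went opposite ways within 1 group. The part of length in these ratios was not tested.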

How the data were processed

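Total RNA libraries of 2 shPRMT1 and 2 shNTC samples were grouped by the titles in the labels. The labels' extraction text also describes chromatin immunoprecipitation; they were taken as RNA sequencing from the stated molecule and library kit. The submitters' processing notes name build hg19 and, without roles, edgeR 3.36.0, StringTie 2.2.1, HISAT2 2.2.1, deepTools and Trim Galore 0.6.7. The authors deposited 1 table with a linear ratio per gene, the log2 of that ratio, and p-values before and after adjustment; for the test, normalization and filter nothing is given in the sources used here.

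The number of tested genes was recovered from p, rank and Benjamini-Hochberg adjusted p: all 52 distinct adjusted p-values that were used implied 7640 to within 0.01. The highest adjusted p was left out, because a p above the limit of the table may set it. On simulated data the number was recovered in 50 of 50 tables. The 4 genes and all lists were chosen with earlier results of these data known, and the promoter windows and motifs after the table was seen. Named genes are the 4, PRMT1, every list gene in the table and genes overlapping or next to the 4; other genes are named only as list members outside the table. List genes were matched by symbol and older symbol, and 187 of 189 had an identifier. Transcript lengths came from GENCODE 29 for 846 of 858 genes, in 5 equal groups by longest transcript. Upstream sequences are RefSeq, GRCh38.p14. Python 3.11.15, numpy 2.4.6, pandas 2.3.3 and matplotlib 3.10.9 were used. Alternatives covered the p and size thresholds, a common offset and the matching of names.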

Additional observations from a re-analysis of the deposited data

How the results depend on the processing

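The direction of DPYD, DCTD and ABCC10 was kept with all log2 ratios of the authors' deposited table raised or lowered by 0.1 or centred on their median. That of UMPS (−0.09) reversed to 0.011 when all ratios were raised by 0.1 and to 0.036 when centred. For all 4 genes the outcome is set by the size of the ratio against the shift, so it is no test of the processing. The median covers only genes with p under 0.05 and does not estimate a normalization offset. All 4 genes had an unadjusted p under 0.05. At an adjusted p under 0.05 the number was 0, at an unadjusted p under 0.01 it was 1 (DPYD), and with an absolute log2 ratio of at least 0.5 in addition to p under 0.05 it was 2 (DPYD and ABCC10) in the authors' deposited table. The 6 listed genes of the pyrimidine lists became 2 at an unadjusted p under 0.01 (DPYD and NT5C3B) and were 6 when matched by symbol only. The background share stayed at 11.2% over the range of recovered test numbers. No paired analysis was possible because the table gives 1 ratio per gene and no values of single samples; for the same reason no replicate was left out, and DESeq2 and a filter on low counts were not run. Depth is unknown, so the limits it sets cannot be given.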
